A study of Mus musculus with 33 samples.

Results

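The glutathione S-transferase family was described over 33 liver libraries by 10 of its genes, which were taken by name from a fixed list and matched in the deposited tables. These are 5 genes of the mu class (Gstm1, Gstm2, Gstm3, Gstm4 and Gstm6), 3 of the alpha class (Gsta2, Gsta3 and Gsta4), 1 of the pi class (Gstp1) and 1 of the theta class (Gstt1). They are 10 of 25988 genes in the count table. Of the 10, 9 had enough reads to be tested among 10179 genes, and Gstp1 did not.

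The livers came from male C57BL/6J mice that were 13 to 18 weeks old at infection, and were collected without fasting 10 days after the last tamoxifen injection. All mice carried floxed G6pc alleles, all were infected with an AAV that delivers an shRNA, and all received tamoxifen. L-G6pc-/- mice also carried a tamoxifen-inducible Cre driven by the albumin promoter, so that the catalytic subunit of glucose-6-phosphatase was to be lost in hepatocytes and other liver cells keep it. L-G6pc+/+ mice were Cre-negative littermates. The shRNA was directed against ChREBP, the glucose-sensing transcription factor encoded by Mlxipl (shChREBP), or was a scrambled control (shSCR). For L-G6pc+/+ there were 8 libraries with shSCR and 8 with shChREBP. For L-G6pc-/- there were 8 with shSCR and 9 with shChREBP. Whether every library had its own mouse is not in the labels, so n counts libraries and p-values measure the spread between these libraries.

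Glutathione S-transferases are cytosolic enzymes that join reduced glutathione to electrophilic compounds, which makes these more soluble and prepares them for export from the cell. Hepatocytes are among the cells richest in them, and the classes differ in their preferred substrates. Many alpha and mu class genes are known targets of the transcription factor NRF2, which binds antioxidant response elements when cells meet oxidants or electrophiles, and of the drug-sensing nuclear receptors CAR and PXR. The mu class genes lie side by side: Gstm1 to Gstm7 occupy 149.1 kb of the mouse genome at chr3:107895821-108044894 (GRCm38), and close relatives within a class can be similar enough for a short read to match more than 1 of them.

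To show where transcription of the genes that changed begins, the 250 bases before the RefSeq start site are given for Gstm1, Gstm3 and Gsta2, which changed most, and for Gsta3 and Gstp1, the members with a motif match (RefSeq, GRCm38.p6, 5′ to 3′ on the gene's strand). RefSeq promoter windows matched 9 of the 10 members by symbol. Gstm1 has more than 1 start in RefSeq, and the more downstream one is shown. Capitals mark the core of an antioxidant response element (TGACNNNGC) in Gsta3 and an AP-1 site (TGANTCA) in Gstp1.
Gstm1, chr3:108017819-108018068, minus strand: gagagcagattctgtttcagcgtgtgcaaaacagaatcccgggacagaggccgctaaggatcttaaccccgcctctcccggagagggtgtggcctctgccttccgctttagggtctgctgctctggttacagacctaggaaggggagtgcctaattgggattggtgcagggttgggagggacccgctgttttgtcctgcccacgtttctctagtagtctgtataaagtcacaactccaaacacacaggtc
Gstm3, chr3:107969175-107969424, minus strand: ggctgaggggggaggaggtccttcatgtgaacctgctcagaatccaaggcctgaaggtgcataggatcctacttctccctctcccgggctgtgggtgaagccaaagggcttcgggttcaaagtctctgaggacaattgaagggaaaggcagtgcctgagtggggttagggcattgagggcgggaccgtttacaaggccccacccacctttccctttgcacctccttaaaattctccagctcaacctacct
Gsta2, chr9:78347146-78347395, minus strand: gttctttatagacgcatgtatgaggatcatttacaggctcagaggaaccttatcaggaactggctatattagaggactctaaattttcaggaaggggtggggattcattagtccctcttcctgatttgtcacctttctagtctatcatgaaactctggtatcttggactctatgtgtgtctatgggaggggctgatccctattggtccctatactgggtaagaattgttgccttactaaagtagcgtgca
Gsta3, chr1:21240335-21240584, plus strand: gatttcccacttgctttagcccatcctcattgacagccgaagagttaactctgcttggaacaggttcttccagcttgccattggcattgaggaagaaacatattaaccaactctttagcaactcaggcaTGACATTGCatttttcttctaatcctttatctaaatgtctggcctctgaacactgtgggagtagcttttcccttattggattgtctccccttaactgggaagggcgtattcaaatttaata
Gstp1, chr19:4037913-4038162, minus strand: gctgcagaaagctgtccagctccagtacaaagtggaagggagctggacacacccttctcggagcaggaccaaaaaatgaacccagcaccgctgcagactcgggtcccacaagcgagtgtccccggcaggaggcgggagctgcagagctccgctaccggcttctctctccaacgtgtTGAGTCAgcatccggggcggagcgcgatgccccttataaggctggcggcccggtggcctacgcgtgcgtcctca

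Letters for 3 motifs were searched on both strands of windows that reach from 250 bases before to 50 bases after the start. The antioxidant response element core TGACNNNGC was found in 1 of the 9 members with a window, Gsta3, starting 121 bases before the start site, and in 12.4% of all 32851 windows. The AP-1 letters TGANTCA, which can overlap an antioxidant response element, were found in Gstp1, starting 74 bases before the start, and in 7.81% of all windows. The E-box CACGTG, a motif related to the elements that ChREBP binds, was found in no member and in 7.15% of all windows. These windows are short, and a missing match says only that the letters are not within them.

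Total counts ran from 1497843 to 3546852 per library (median 2141043), and the 10 genes together took 0.144% to 0.532% of them. Levels are given as CPM, counts scaled to a common library total with TMM factors, and changes as log2 fold changes from edgeR's quasi-likelihood fit, with a gene called changed at a Benjamini-Hochberg adjusted p under 0.05 over all 10179 genes. G6pc itself was counted at 78.7 to 364 CPM in shSCR/L-G6pc+/+ and at 158 to 752 CPM in shSCR/L-G6pc-/- livers (0.56, edgeR adjusted p = 0.368), so its counts were not lower in the libraries labelled L-G6pc-/-. With reads from the 3′ end, RNA without the floxed part can still be counted, which leaves the deletion unchecked here, and L-G6pc-/- is used as the label gives it. Mlxipl, the target of the shRNA, was lower with shChREBP by 0.55 in L-G6pc+/+ (edgeR adjusted p = 0.0129) and by 0.57 in L-G6pc-/- livers (edgeR adjusted p = 0.00417) on the log2 scale. The second value was -0.27 and did not pass without s29, s30, s32 and s33, the libraries described next (edgeR adjusted p = 0.214). All 6 hepatocyte markers (Alb, Apoa1, Ttr, Cps1, Cyp2e1 and Serpina1c) were counted in every group. Over all genes, 4 of the 9 libraries with both alterations, namely s29, s30, s32 and s33, stood apart from the other 5 on the first principal component (26.8 to 35.6 against -1.47 to 7.70, with 14.7% of the variance). Values without these 4 libraries are given beside the results they bear on, except for sums and calls of cell type markers, for which they were not computed.

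Members of the family changed in the L-G6pc-/- livers that received shChREBP, and none was called changed by either alteration alone. With shChREBP in L-G6pc-/- livers, 4 of 9 tested members rose: Gstm1, Gstm3, Gsta2 and Gsta4. Of all genes tested in that comparison 7.56% were called, 3.33% higher and 4.23% lower. The median log2 fold change of the 9 members was 0.67, beside 0.01 over all genes tested. Scaling by library size alone, without TMM, put the median of all genes at 0.112 and the share of called genes that were higher at 75.8% in place of 44%. That share went from 55.6% to 74% against shChREBP/L-G6pc+/+ and from 51.9% to 68.2% against shSCR/L-G6pc+/+ livers, and from 68.1% to 57.6% between the shSCR groups. The 4 members rose under both scalings.

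Against shChREBP/L-G6pc+/+ livers, which differ from the same livers in genotype, 6 of 9 members were higher (Gstm1, Gstm2, Gstm3, Gstm4, Gsta2 and Gsta4) and none was lower. Of all genes, 11% were called there, 6.14% higher and 4.9% lower. Against shSCR/L-G6pc+/+ livers, 5 members were higher (Gstm1, Gstm2, Gstm3, Gstm4 and Gsta2) and 1, Gsta3, was lower, with 13.2% of all genes called, 6.87% higher and 6.37% lower. These 3 comparisons share the shChREBP/L-G6pc-/- libraries, so they are not separate evidence.

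Between the shSCR groups of both genotypes 0 of 9 members were called, beside 3.23% of all genes (2.2% higher and 1.03% lower). Only Gstm2 had an unadjusted p under 0.05, with a log2 fold change of 0.41 (edgeR, unadjusted p = 0.0306, adjusted p = 0.272). With shChREBP in L-G6pc+/+ livers 0 of 9 were called, beside 5.39% of all genes (2.16% higher and 3.23% lower). There only Gstm1 had an unadjusted p under 0.05 (edgeR log2 fold change 0.45, unadjusted p = 0.0478, adjusted p = 0.227). DESeq2 and limma-voom also called 0 members in both comparisons. Of all genes they called 4.13% and 3.31% in the first and 6.93% and 5.18% in the second.

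The effect of shChREBP was compared between genotypes as a difference of log2 fold changes. It was above 0 for all 9 members with all libraries (not for Gstm4 without s29, s30, s32 and s33, nor for Gsta3 without s9 and s13) and called for 0 of them, where 8 genes were called over the whole table, 0.0786% of those tested (0.0589% higher and 0.0196% lower). The median difference of the 9 members was 0.56, beside -0.01 over all genes tested. At an unadjusted p under 0.05 there were 5 (Gstm1, Gstm2, Gstm3, Gsta2 and Gsta4). The share of all genes under that unadjusted threshold was not counted, here or for the single alterations. The largest difference was that of Gstm3, 2.59 (SE, the standard error, 0.61, edgeR adjusted p = 0.0706). DESeq2 called Gstm3 (2.61, adjusted p = 0.0103) and no other member, and limma-voom called 0. Of all genes, DESeq2 called 73 of 7811, or 0.935%, and limma-voom 0.0393%. Over 9 alternative analyses the adjusted p of Gstm3 ran from 0.00446 to 0.271. It passed when s20 of shSCR/L-G6pc-/- (2.93, edgeR adjusted p = 0.0365), s28 of shChREBP/L-G6pc-/- (2.73, edgeR adjusted p = 0.0288) or s31 of that group (2.72, edgeR adjusted p = 0.0344) was left out.

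**Figure D1:**
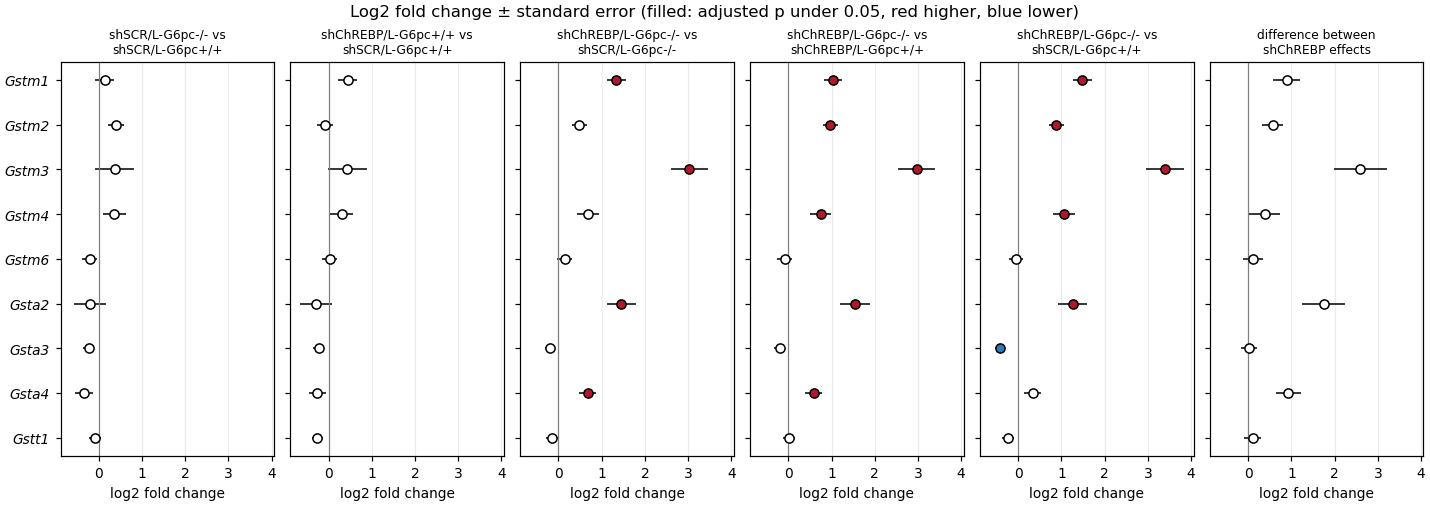
Log2 fold change of each tested member in 5 comparisons and, in the last panel, how much the shChREBP effect differed by genotype. Points are edgeR estimates, bars are standard errors, and filled points passed an adjusted p of 0.05 (red higher, blue lower). Filled points lie only in the panels that hold the shChREBP/L-G6pc-/- group, and Gstm3 lies farthest from 0 in each of those.

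Gstm3, a mu class transferase, showed the largest change of the family. Its gene is at chr3:107963696-107969283 on the minus strand. In shSCR/L-G6pc+/+ livers it was measured at 15.3 to 33.9 CPM (median 21.3, n = 8), in shChREBP/L-G6pc+/+ at 16.8 to 58.9 CPM (median 27.7, n = 8) and in shSCR/L-G6pc-/- at 12.7 to 70.4 CPM (median 25.8, n = 8). In shChREBP/L-G6pc-/- livers it reached 41.9 to 580.5 CPM (median 186, n = 9).

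All 9 shChREBP/L-G6pc-/- libraries lay above the highest shSCR/L-G6pc+/+ library. Gstm3 was the only member whose groups did not overlap in that comparison, as was the case for 1.67% of all genes tested. Against shSCR/L-G6pc-/- livers, 6 of 9 libraries lay above the highest one, s20. The libraries were also spread widely within the group, at 580.5 CPM in s32, 462 in s29, 401 in s30, 268 in s33 and 186 in s25, and at 41.9 to 81.7 CPM in the other 4.

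With shChREBP in L-G6pc-/- livers Gstm3 rose by 3.03 on the log2 scale (SE 0.42, edgeR adjusted p = 1.51e-05). It was higher by 3.40 than in shSCR/L-G6pc+/+ (edgeR adjusted p = 9.48e-07) and by 2.97 than in shChREBP/L-G6pc+/+ livers (edgeR adjusted p = 1.11e-05). Without s29, s30, s32 and s33 these values were 1.55, 1.93 and 1.496, and each still passed (edgeR adjusted p = 0.00976, 0.000358 and 0.00373).

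Gstm1, a mu class transferase abundant in mouse liver, is at chr3:108012255-108017973 on the minus strand. It was measured at 427 to 490.1 CPM (median 471, n = 8) in shSCR/L-G6pc+/+ and at 425 to 890.3 CPM (median 632, n = 8) in shChREBP/L-G6pc+/+ livers. It stood at 387 to 655 CPM (median 500.1, n = 8) in shSCR/L-G6pc-/- and at 488 to 2787 CPM (median 1131, n = 9) in shChREBP/L-G6pc-/- livers. In the first group the libraries lay close together, with a coefficient of variation of 5.19%, and in the last it was 56.5%.

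With shChREBP, 7 of 9 L-G6pc-/- libraries lay above every shSCR/L-G6pc-/- library, and the other 2, s27 and s28, lay within their range. The rise of Gstm1 was 1.34 on the log2 scale (SE 0.22, edgeR adjusted p = 0.000115), a 2.53-fold change. It was 0.62 and still passed without s29, s30, s32 and s33 (edgeR adjusted p = 0.0464). Against shChREBP/L-G6pc+/+ livers Gstm1 was higher by 1.03 (edgeR adjusted p = 0.00158), and without those 4 libraries this was 0.31 and did not pass (edgeR adjusted p = 0.226). In L-G6pc+/+ livers 7 of 8 shChREBP libraries lay above the highest shSCR library, but the value of 0.45 was not called. It passed in the fit without the 4 libraries (0.45, edgeR adjusted p = 0.049) and in that of only these 2 groups (0.45, edgeR adjusted p = 0.0241). Over its alternatives, including those, the change of Gstm1 with shChREBP in L-G6pc+/+ livers had an adjusted p of 0.024 to 0.3.

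Gstm2 and Gstm4, mu class genes of the same cluster, were higher in shChREBP/L-G6pc-/- livers than in livers of the other genotype, and did not pass the test against shSCR/L-G6pc-/- livers. Gstm2 was at 60.8 to 77.7 CPM (median 67.5) in shSCR/L-G6pc+/+, at 46.0 to 91.1 CPM (median 63.9) in shChREBP/L-G6pc+/+, at 59.5 to 125.05 CPM (median 86.7) in shSCR/L-G6pc-/- and at 71.2 to 215 CPM (median 127) in shChREBP/L-G6pc-/- livers. The ranges of the 4 groups overlapped, and that of the last reached highest.

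The change of Gstm2 relative to shSCR/L-G6pc-/- livers was 0.48 (edgeR adjusted p = 0.0799). Against shChREBP/L-G6pc+/+ livers it was 0.97 (SE 0.18, edgeR adjusted p = 0.000321) and against shSCR/L-G6pc+/+ livers 0.88 (edgeR adjusted p = 0.000549). Without s29, s30, s32 and s33 these were 0.02, 0.52 and 0.43, of which only the second passed (edgeR adjusted p = 0.0396). Leaving out 1 library, s24 of shSCR/L-G6pc-/- (0.56, adjusted p = 0.0493), s27 (0.55, adjusted p = 0.0344), s28 (0.55, adjusted p = 0.0342) or s31 (0.54, adjusted p = 0.0448) of shChREBP/L-G6pc-/-, let the first comparison pass in edgeR.

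Gstm4 was at 26.03 to 39.1 CPM (median 34.6) in shSCR/L-G6pc+/+, at 27.6 to 63.7 CPM (median 39.98) in shChREBP/L-G6pc+/+, at 28.5 to 58.6 CPM (median 44.4) in shSCR/L-G6pc-/- and at 27.01 to 157 CPM (median 52.6) in shChREBP/L-G6pc-/- livers. The 4 libraries above 80 CPM were s29, s30, s32 and s33, and the other 5 lay at 27.01 to 52.6 CPM. Its log2 fold change with shChREBP in L-G6pc-/- livers was 0.69 (edgeR adjusted p = 0.0822), and that against shSCR/L-G6pc+/+ livers 1.05 (edgeR adjusted p = 0.00402). Against shChREBP/L-G6pc+/+ livers it was 0.74 and just passed (edgeR adjusted p = 0.0494). That call was lost in 21 of the 33 fits that left out 1 library, with values of 0.50 to 0.85 over all of them. Without the 4 libraries the 3 values were -0.17, 0.19 and -0.11 and none passed.

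Gstm6, the mu class member nearest Gstm7, was called changed in no comparison, and edgeR's log2 fold changes ran from -0.20 to 0.14. Its libraries lay at 24.3 to 72.5 CPM over all 4 groups, with medians of 51.9, 56.6, 51.7 and 48.9 CPM in the order in which the groups were named above. Of all counts assigned to the 7 Gstm genes, Gstm3 took 2.29% to 4.79% (median 3.16%) in shSCR/L-G6pc+/+ and 5.17% to 19.1% (median 11.2%) in shChREBP/L-G6pc-/- livers. The share of Gstm6 was 6.21% to 10.2% in the first and 1.72% to 5.71% in the second. In the 5 libraries other than s29, s30, s32 and s33 the second group's shares were 5.17% to 11.9% for Gstm3 and 3.59% to 5.71% for Gstm6.

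**Figure D2:**
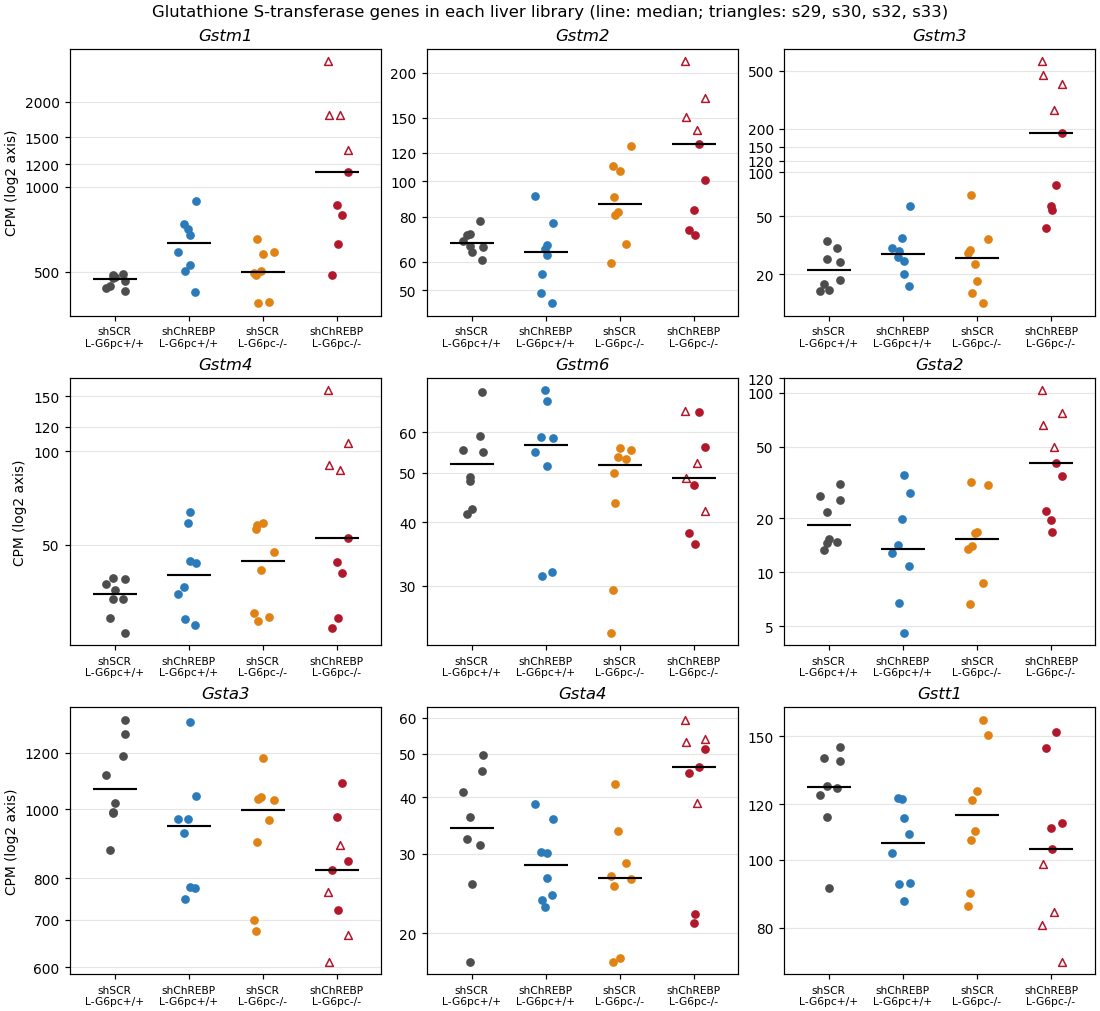
CPM of the 9 tested members in each of the 33 libraries, on a log2 axis that differs between panels. Points are libraries, lines are group medians, and open triangles are s29, s30, s32 and s33. In the Gstm3 panel every shChREBP/L-G6pc-/- library lies above the shSCR/L-G6pc+/+ range of 15.3 to 33.9 CPM, and in the Gsta3 panel 6 of 9 lie below the shSCR/L-G6pc+/+ range.

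The alpha class members did not move together. Gsta2, which reduces lipid hydroperoxides, and Gsta4, which conjugates the lipid peroxidation product hydroxynonenal, rose with shChREBP in L-G6pc-/- livers, and Gsta3, known in mice for its conjugation of aflatoxin epoxide, did not.

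Gsta2 was measured at 13.4 to 31.1 CPM (median 18.4, n = 8) in shSCR/L-G6pc+/+ and at 4.5996 to 34.8 CPM (median 13.5, n = 8) in shChREBP/L-G6pc+/+ livers. In L-G6pc-/- livers it was at 6.68 to 31.97 CPM (median 15.3, n = 8) with shSCR and at 16.8 to 103 CPM (median 40.5, n = 9) with shChREBP. The first 3 groups covered much the same range, and 6 of 9 libraries of the last lay above the highest shSCR/L-G6pc-/- library. The rise was 1.46 on the log2 scale (SE 0.34, edgeR adjusted p = 0.00526). Gsta2 was higher by 1.55 than in shChREBP/L-G6pc+/+ (edgeR adjusted p = 0.00252) and by 1.26 than in shSCR/L-G6pc+/+ livers (edgeR adjusted p = 0.008). Without s29, s30, s32 and s33 the values were 0.64, 0.73 and 0.44, and none passed (edgeR adjusted p = 0.478, 0.183 and 0.581).

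Gsta4 was at 17.3 to 49.8 CPM (median 34.2) in shSCR/L-G6pc+/+ and at 22.9 to 38.6 CPM (median 28.3) in shChREBP/L-G6pc+/+ livers. With shSCR in L-G6pc-/- livers it was at 17.3 to 42.9 CPM (median 26.5), and with shChREBP at 21.01 to 59.5 CPM (median 46.7). The change of 0.67 (SE 0.20, edgeR adjusted p = 0.028) rested on 6 of 9 libraries above the shSCR range, while s27 and s31 lay at 22.01 and 21.01 CPM. Against shSCR/L-G6pc+/+ livers Gsta4 did not pass (0.33, edgeR adjusted p = 0.282). The rise with shChREBP no longer passed when any 1 of s19, s23, s25, s29, s30 or s32 was left out (0.60 to 0.64, edgeR adjusted p = 0.05072 to 0.0699), nor without s29, s30, s32 and s33 together (0.47, edgeR adjusted p = 0.412). The difference from shChREBP/L-G6pc+/+ livers was 0.59 (edgeR adjusted p = 0.0451), or 0.39 without the 4 libraries (edgeR adjusted p = 0.306), and 14 of the 33 fits that left out 1 library lost the call.

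Gsta3 was highest in shSCR/L-G6pc+/+ livers, at 878 to 1335 CPM (median 1068), and lowest in shChREBP/L-G6pc-/- livers, at 610.5 to 1087 CPM (median 822). The groups with 1 alteration lay between, at 748 to 1327 CPM (median 947) with shChREBP in L-G6pc+/+ and 674 to 1179 CPM (median 998) with shSCR in L-G6pc-/-, and neither differed from either outer group in the test. The fall between the outer groups was called (-0.42, SE 0.12, edgeR adjusted p = 0.0192), with 6 of 9 libraries below the lowest shSCR/L-G6pc+/+ library. It did not pass without s2 of shSCR/L-G6pc+/+ (-0.37, edgeR adjusted p = 0.0505) or without s29, s30, s32 and s33 (-0.30, edgeR adjusted p = 0.306).

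Hepatocyte markers moved in the same comparison. Of the 6, 5 were lower in shChREBP/L-G6pc-/- than in shSCR/L-G6pc+/+ livers and none was higher. Their summed level was 10005 to 19140 CPM against 24886 to 27705 CPM. Of all genes, 6.87% were higher and 6.37% lower in that comparison. The 8 pericentral hepatocyte markers summed to 1974 to 3400.0 CPM against 2751 to 4262 CPM, with 2 of 8 lower, and the 8 periportal ones to 4923 to 10584 CPM against 4502 to 9411 CPM, with 1 higher and 1 lower. With bulk RNA, fewer cells of a type and less RNA per cell cannot be told apart. Whether the marker calls hold without s29, s30, s32 and s33 was not computed. The part of these marker levels in the fall of Gsta3 was not tested.

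Gstt1, a theta class enzyme that acts on small halogenated compounds, was called changed in no comparison. Its libraries lay at 91.1 to 145 CPM (median 127) in shSCR/L-G6pc+/+, at 87.4 to 123 CPM (median 105) in shChREBP/L-G6pc+/+, at 85.7 to 159 CPM (median 116) in shSCR/L-G6pc-/- and at 71.4 to 152 CPM (median 104) in shChREBP/L-G6pc-/- livers. These ranges overlapped throughout. The change farthest from 0 was -0.26 with shChREBP in L-G6pc+/+ livers (SE 0.14, edgeR adjusted p = 0.277).

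Gstp1, the pi class enzyme, was counted at 0 or 1 read in each of the 33 libraries, 10 reads in all. A count of 0 allows up to 3 counts in a library, or 0.846 to 2.003 CPM without TMM factors, depending on its total, and this limit covers counting error only. More reads were counted at a pseudogene of related sequence. The processed pseudogene Gstp-ps, at chr1:192073820-192074450 inside the gene Traf5 and on its strand, was counted at 14 to 167 reads, 2044 in all. Of the 50-base words in the last 300 bases of the Gstp-ps transcript, 100% also occur in a Gstp1 transcript and 100% in a transcript of Gstp2, the pi class gene next to Gstp1. A 50-base read from that end therefore cannot be assigned to 1 of these genes by its sequence. How HTSeq treated reads with several matches is not given in the sources used here.

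Gstp-ps was named after its values were seen. It was at 7.39 to 21.97 CPM (median 14.7) in shSCR/L-G6pc+/+, at 14.5 to 40.7 CPM (median 25.8) in shChREBP/L-G6pc+/+, at 9.62 to 46.1 CPM (median 16.7) in shSCR/L-G6pc-/- and at 25.4 to 63.7 CPM (median 44.2) in shChREBP/L-G6pc-/- livers. Its level was higher with shChREBP in both genotypes, by 0.92 in L-G6pc+/+ (edgeR adjusted p = 0.0224) and by 1.20 in L-G6pc-/- livers (edgeR adjusted p = 0.00074). The second value was 1.12 without s29, s30, s32 and s33 (edgeR adjusted p = 0.0246). The first did not pass when s3 of shSCR/L-G6pc+/+ (0.83, adjusted p = 0.0538), s15 (0.81, adjusted p = 0.0635) or s16 (0.86, adjusted p = 0.0521) of shChREBP/L-G6pc+/+ was left out of the edgeR fit. Whether these reads came from Gstp1, Gstp2, Gstp-ps or Traf5 was not tested.

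Shared sequence was counted for the other members in the same way, over the last 300 bases of their protein-coding transcripts. Gstm3, Gstm4, Gsta3, Gsta4 and Gstt1 had no 50-base word in common with a transcript of another gene, Gstm2 shared 2.82% and Gstm6 5.35% of their words, and Gstm1 shared 22.95%, with Gstm3 among the partners. Gsta2 shared 47.05%, mostly with Gsta1 and the predicted genes Gm10639 and Gm3776. Over the last 600 bases the share of Gsta2 was 62.1%, that of Gstm1 25.1% and that of Gstm3 0.73%.

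Gsta1, the alpha class gene most like Gsta2 at this end, is not a member and was too low to be tested. It was counted at 2 reads in all in shSCR/L-G6pc+/+, 10 in shChREBP/L-G6pc+/+, 12 in shSCR/L-G6pc-/- and 172 in shChREBP/L-G6pc-/- livers. In the last group every library had at least 2 counts and the highest 46 (42 in all and at most 19 without s29, s30, s32 and s33), and of the 12 counts in shSCR/L-G6pc-/- livers 10 were in s20. Gsta1 and Gsta2 thus had their highest counts in the same group.

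**Figure D3:**
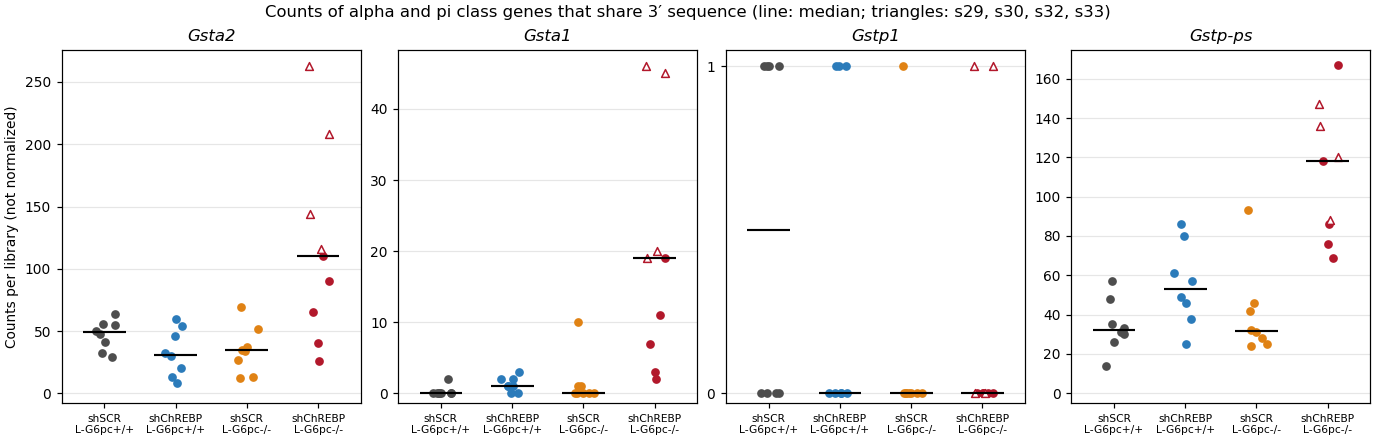
Counts per library, not normalized, of Gsta2 and Gsta1 and of Gstp1 and the pseudogene Gstp-ps, by group, on linear axes that differ between panels. Points are libraries, lines are medians and open triangles are s29, s30, s32 and s33. Gstp1 stays at 0 or 1 count in every library, whereas Gstp-ps is counted 14 to 167 times.

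To leave aside how reads were divided among the named genes of a class, their counts were summed before the fit. Other relatives that share words were not in the Gstm and Gsta sums. These include Gm10639 and Gm3776 for Gsta2, and Gm8834 and Gstm2-ps1 for Gstm1, so division of reads with them remains. The 7 Gstm genes together rose with shChREBP in L-G6pc-/- livers by 1.25 on the log2 scale (SE 0.21, edgeR adjusted p = 0.000204), and by 0.34 in L-G6pc+/+ livers, which did not pass (edgeR adjusted p = 0.374). The first value was 0.51 and did not pass without s29, s30, s32 and s33 (edgeR adjusted p = 0.107), so the call of the summed class ended with those libraries. Summed, they were at 635 to 732 CPM in shSCR/L-G6pc+/+ and 705 to 3851 CPM in shChREBP/L-G6pc-/- livers. The 4 Gsta genes together, most of whose counts are those of Gsta3, had a value of -0.10 with shChREBP in L-G6pc-/- livers (edgeR adjusted p = 0.681). The 4 Gstt genes together were lower with shChREBP in L-G6pc+/+ livers (-0.55, edgeR adjusted p = 0.033). By themselves Gstt3 fell there (-0.91, edgeR adjusted p = 0.00919), and Gstt1 (-0.26) and Gstt2 (-0.29) did not pass (edgeR adjusted p = 0.277 and 0.334). In L-G6pc-/- livers the value of -0.36 for the sum did not pass (edgeR adjusted p = 0.138). Between shChREBP/L-G6pc-/- and shSCR/L-G6pc+/+ livers the sum was lower (-0.54, edgeR adjusted p = 0.0143). This did not pass without s29, s30, s32 and s33 (-0.41, edgeR adjusted p = 0.255).

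**Figure D4:**
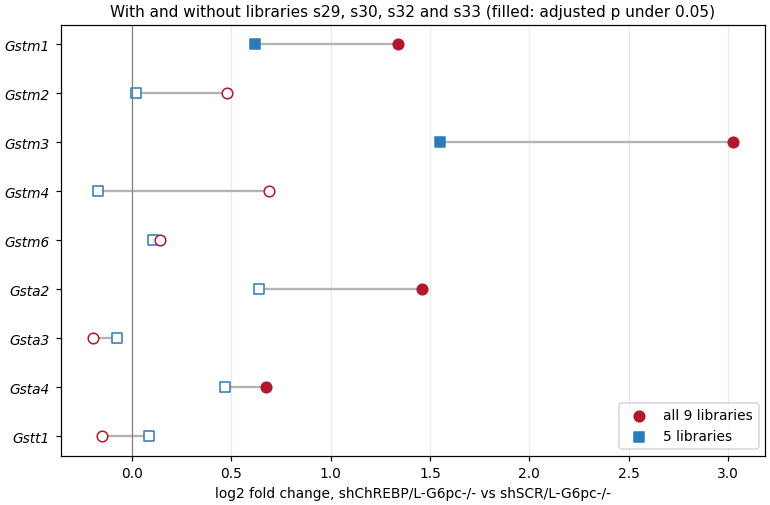
Log2 fold change with shChREBP in L-G6pc-/- livers of each tested member, with all 9 shChREBP libraries (circles) and without s29, s30, s32 and s33 (squares). Filled symbols passed an adjusted p of 0.05. Without those 4 libraries Gstm3 (1.55) and Gstm1 (0.62) still passed, and Gstm4 lay below 0.

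The number of members called with shChREBP in L-G6pc-/- livers was 2 in place of 4 without s29, s30, s32 and s33, and 1.02% of all genes were then called. Against shChREBP/L-G6pc+/+ it was 2 in place of 6 (Gstm2 and Gstm3), with 8.78% of all genes called, and against shSCR/L-G6pc+/+ 2 in place of 6 (Gstm1 and Gstm3), with 3.09% of all genes called. The libraries with the highest Gstm3 were the same 4, and they were set apart by all genes, these included.

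Across the 33 libraries, 1 pair of members moved most closely together. Pearson's r of log2 CPM between Gstm1 and Gstm3 was 0.94, and 0.84 over the 29 libraries without s29, s30, s32 and s33. After group means were taken away it was 0.89, with those 4 libraries included. Taking away 1 mean per group leaves their distance from the other shChREBP/L-G6pc-/- libraries in place. These values are descriptions, since both values of a point come from the same library and depth, and part of the Gstm1 transcript end also occurs in Gstm3. Gstm1 and Gstm4 had an r of 0.86 (0.58 without the 4), and Gstm3 and Gsta3 one of -0.49 (-0.20 without the 4).

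**Figure D5:**
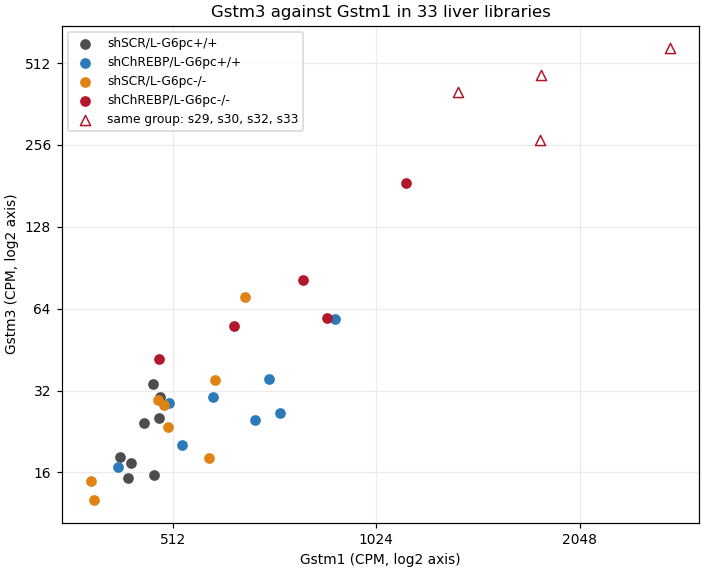
CPM of Gstm3 against CPM of Gstm1 in the 33 libraries, both on log2 axes, coloured by group, with s29, s30, s32 and s33 as open triangles. Pearson's r of log2 CPM was 0.94 over all libraries and 0.84 without the triangles.

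Outside the family, the tested genes most like Gstm3 over the 33 libraries were Ugdh, which makes the UDP-glucuronic acid used in glucuronidation (r = 0.94), Creg1 (r = 0.92) and Cbr3, a carbonyl reductase (r = 0.92). Gstm1 was most like Ugdh (r = 0.93), Creg1 (r = 0.92) and Ugt2b35, a glucuronosyltransferase (r = 0.90). Without the 4 libraries these were 0.84, 0.75 and 0.70 for Gstm3 and 0.83, 0.77 and 0.80 for Gstm1. Gsta2 was most like the cytochrome P450 Cyp2a5 (r = 0.85), Creg1 (r = 0.78) and Entpd5 (r = 0.76), and these fell to 0.69, 0.49 and 0.44 without the 4.

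Gsta3 was instead most like Abat and Aldh4a1 (r = 0.87 and 0.85), genes of amino acid breakdown. For Gstt1 they were Mut, Gcdh and Cyp2j5 (r = 0.83, 0.82 and 0.82), for Gstm6 Acat3, Agmat and Rarres2 (r = 0.78, 0.77 and 0.76), and for Gsta4 Spc24, Rtn4 and Ces1g (r = 0.78, 0.67 and 0.66). Gstm2 was most like Mdh2, Entpd5 and Cyp2a5 (r = 0.86, 0.84 and 0.82), and Gstm4 like Sqstm1, Capns1 and Slc48a1 (r = 0.84, 0.82 and 0.81). Without the 4 libraries the values were 0.73, 0.61 and 0.61 for Gstm2 and 0.60, 0.58 and 0.40 for Gstm4. Those of Gsta3, Gstt1, Gstm6 and Gsta4 were then between 0.53 and 0.83. The genes given for each member were among the 3 highest of 10158.

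Of 21 other glutathione S-transferase genes listed, 16 were found in the count table and 11 were tested. With shChREBP in L-G6pc-/- livers 1 of 11 was called, Gstt3, a theta class neighbour of Gstt1, which fell by 0.91 (edgeR adjusted p = 0.00433). That is near the 7.56% of all genes called there. Gstt3 was also lower with shChREBP in L-G6pc+/+ livers, from 172 to 314 CPM (median 231) down to 74.7 to 247 CPM (median 115), a log2 fold change of -0.91 (edgeR adjusted p = 0.00919). Between shChREBP/L-G6pc-/- and shSCR/L-G6pc+/+ livers it was -1.22 (edgeR adjusted p = 7.04e-05). The fall in L-G6pc-/- livers became -0.72 and missed the threshold without s29, s30, s32 and s33 (edgeR adjusted p = 0.168). The transcripts of Gstt3 share words with the overlapping gene Gm20441, so its counts are uncertain. Hpgds, the hematopoietic prostaglandin D synthase of the sigma class, was higher in shChREBP/L-G6pc-/- than in shSCR/L-G6pc+/+ livers (1.16, edgeR adjusted p = 0.00195) and than in shChREBP/L-G6pc+/+ livers (0.85, edgeR adjusted p = 0.0263, or 0.0601 without s29 and 0.0524 without s14), at 3.88 to 12.3 CPM against 1.54 to 5.35 and 3.07 to 6.04 CPM. Without the 4 libraries neither passed (0.92 and 0.61, edgeR adjusted p = 0.0949 and 0.214).

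Hpgds is known from macrophages and mast cells, and the 8 macrophage markers summed to 623 to 995 CPM in shChREBP/L-G6pc-/- and 455 to 803 CPM in shSCR/L-G6pc+/+ livers, with 2 of 8 called higher and none at 0. Between the shSCR and shChREBP groups of L-G6pc-/- livers 3 of 8 were higher, and there Hpgds did not pass (0.77, edgeR adjusted p = 0.0547). Against shChREBP/L-G6pc+/+ livers, where the markers summed to 511 to 1242 CPM, 0 of 8 were called. Over all genes the shares called higher were 6.87%, 3.33% and 6.14% in these comparisons, in the order given. The part of these markers in the Hpgds levels was not tested.

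Genes that make, use and export glutathione were taken from a list of 38, of which 28 were tested. With shChREBP in L-G6pc-/- livers 5 rose, none fell and 23 did not pass, beside 3.33% of all genes called higher and 4.23% lower. The 5 were Gclc, the catalytic subunit of the rate-limiting enzyme of glutathione synthesis (0.71, edgeR adjusted p = 0.0051), Gss, glutathione synthetase (0.65, edgeR adjusted p = 0.0111), the amino acid transporter subunit Slc3a2 (0.59, edgeR adjusted p = 0.0343), and the conjugate exporters Abcc3 (0.66, edgeR adjusted p = 0.00205) and Abcc4 (1.31, edgeR adjusted p = 0.00799). The median of the 28 was 0.05, beside 0.01 over all genes. None of the 5 passed without s29, s30, s32 and s33. Relative to shChREBP/L-G6pc+/+ livers 3 of the 28 were higher (Gclc, Gss and Abcc4) and 1 lower (Gpx1, -0.27, edgeR adjusted p = 0.0465). Of all genes, 11% were called there, 6.14% higher and 4.9% lower. Gclc, Gss, Abcc4 and Gpx1 did not pass there without those 4 libraries. Against shSCR/L-G6pc+/+ livers Gclc, Gss and Abcc4 were higher and 4 genes were lower, beside 6.87% of all genes higher and 6.37% lower. These 4 were Ggt6, a member of the gamma-glutamyltransferase family (-0.59, edgeR adjusted p = 0.016), the glyoxalase Glo1 (-0.35, edgeR adjusted p = 0.0449), Nat8, which acetylates cysteine conjugates (-1.42, edgeR adjusted p = 0.0269), and the glycine methyltransferase Gnmt (-0.59, edgeR adjusted p = 0.0494). Of these 7 only Gss passed without the 4 libraries (0.55, edgeR adjusted p = 0.0382).

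Of 30 tested regulators and marker targets of the pathways that act on these genes, 3 rose with shChREBP in L-G6pc-/- livers. There 2 fell and 25 did not pass, beside 3.33% of all genes called higher and 4.23% lower. The 3 were the NRF2 targets Srxn1 (2.10, edgeR adjusted p = 6.945e-05), Nqo1 (1.31, edgeR adjusted p = 0.0047) and Txnrd1 (0.77, edgeR adjusted p = 0.00582). Cebpa, a hepatocyte transcription factor, and Mlxipl itself fell (-0.45 and -0.57). Of the 5, Srxn1 alone still passed without s29, s30, s32 and s33 (0.82, edgeR adjusted p = 0.0167). Hmox1, another NRF2 target, did not pass (0.55, edgeR adjusted p = 0.179). In the glutathione list Gclc rose, while Gclm (0.15) and Gsr (0.21) did not pass (edgeR adjusted p = 0.359 and 0.524). Cyp2b10 and Cyp3a11, marker targets of CAR and PXR, were at -1.25 and -0.44 and did not pass (edgeR adjusted p = 0.0639 and 0.22). Nfe2l2, which encodes NRF2, and the receptor genes Nr1i3 (CAR) and Nr1i2 (PXR) did not pass there, with values of 0.11, -0.39 and 0.26. Against shChREBP/L-G6pc+/+ livers 7 of the 30 were higher and 4 lower, beside 6.14% and 4.9% of all genes. Among them Nfe2l2 was higher (0.49, edgeR adjusted p = 0.00396), Nr1i3 lower (-0.78, edgeR adjusted p = 0.00714) and Nr1i2 higher (0.41, edgeR adjusted p = 0.0231). Without the 4 libraries these were 0.43, -0.84 and 0.42, of which that of Nr1i2 did not pass (edgeR adjusted p = 0.0411, 0.00493 and 0.0525). Relative to shSCR/L-G6pc+/+ livers 6 of the 30 were higher and 5 lower, beside 6.87% and 6.37% of all genes. Cyp2b10 was lower there (-1.51, edgeR adjusted p = 0.0117, or 0.275 without the 4 libraries) and Cyp3a11 did not pass (0.15, edgeR adjusted p = 0.485). Nr1i3 was lower (-1.05, edgeR adjusted p = 0.000253) and Nfe2l2 higher (0.60, edgeR adjusted p = 0.000336). Nfe2l2 was also higher in shSCR/L-G6pc-/- than in shSCR/L-G6pc+/+ livers (0.49, edgeR adjusted p = 0.0106). The part of these genes in the levels of the members was not tested. The activity of these factors was not measured by RNA counts.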

How the data were processed

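Mouse liver RNA was sequenced as single 50-base reads from 3′ QuantSeq libraries, 33 in all. According to the methods, the authors aligned the reads to GRCm38 with HISAT and counted them per gene with HTSeq-count, and the deposited counts are whole reads per gene. Versions and the handling of strand and of reads with several matches are not given in the sources used here. The authors also deposited a normalized signal table of 11125 genes, used only as an alternative. Gene names came from GENCODE M21 (25817 of 25988 identifiers named).

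Counts were scaled by TMM and tested with edgeR 4.0.16 (quasi-likelihood, R 4.3.3) in 1 fit of all 4 groups, after a filter on low counts (filterByExpr, minimum count 10) that left 10179 genes. P-values were adjusted by Benjamini-Hochberg over those genes, with a threshold of 0.05. CPM are counts scaled to a common library total with TMM factors, and correlations used log2 CPM with a prior count of 2. DESeq2 1.42.0, limma 3.58.1, other scalings, filters and sets of libraries were alternatives. The fit was also run on simulated counts, in which the changed genes shifted alike in every shChREBP/L-G6pc-/- library. Those counts held no split like that of s29, s30, s32 and s33, so they do not bear on it.

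The text names all 10 members, listed genes past the threshold, and for each tested member the 3 genes most like it, of which 1 is not reported here. Members, lists and tests were chosen with earlier results of these data known.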

Additional observations from a re-analysis of the deposited data

Results flagged for a closer look

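In 36 groups of libraries, 4 for each of the 9 tested members, the highest or lowest library was compared with its neighbour by Dixon's ratio, a test by which chance alone flags about 1 in 20 groups. It flagged 2 groups, both for Gstm3. In shChREBP/L-G6pc+/+ livers s14 was at 58.87 CPM, where the next library was at 35.4 CPM. In shSCR/L-G6pc-/- livers s20 was at 70.42 CPM, where the next was at 35.06 CPM.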

How the results depend on the processing

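No paired analysis was possible because the groups share no replicate numbers in the labels. Of the values recomputed under alternatives that keep or drop sets of libraries, genes or tools, 783 stayed on their side of the threshold in the same direction, 40 no longer passed, 11 newly passed and 12 changed sign. Leaving out 1 library at a time gave 3 to 6 called members with shChREBP in L-G6pc-/- livers, 4 to 6 against shChREBP/L-G6pc+/+, 5 to 6 against shSCR/L-G6pc+/+, 0 to 1 for the difference of shChREBP effects and 0 for each alteration alone. The shares of all genes called in those fits were not recorded. Without s29, s30, s32 and s33 the first 3 counts were 2, 2 and 2, beside 1.02%, 8.78% and 3.09% of all genes. With shChREBP in L-G6pc+/+ livers 1 member, Gstm1, was called in that fit and in the fit of only those 2 groups. These called 7.1% and 7.29% of all genes there. For the difference, 1 member, Gstm3, was called with library size only, with no filter and with DESeq2, and a fit of only 2 groups could not be made. Of all genes tested, library size only called 0.324% for the difference, no filter 0.0462% and DESeq2 0.935%.

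Sign changes had these log2 values. Without s29, s30, s32 and s33, Gstm4 was at -0.1673 with shChREBP in L-G6pc-/- livers, -0.1135 against shChREBP/L-G6pc+/+ and -0.4739 for the difference, and Gstt1 at 0.08648 with shChREBP in L-G6pc-/- livers. Without s9 and s13, the difference was -0.06012 for Gsta3 and -0.02404 for Gstt3, and Gstt1 was at -0.04834 against shChREBP/L-G6pc+/+. The same Gstt1 value was -0.0146 by limma-voom and -0.01673 by limma on the deposited values. Gstm6 was at -0.0209 with shChREBP in L-G6pc+/+ livers by limma on the deposited values, and at 0.01815 against shSCR/L-G6pc+/+ with library size only. Without Gm42418, a gene with many reads, the difference of Gstt3 was -0.008257. Leaving out 1 library, Gstm6 ran from -0.0486 to 0.1089 with shChREBP in L-G6pc+/+ and from -0.1271 to 0.01752 between shChREBP/L-G6pc-/- and shSCR/L-G6pc+/+ livers. Gstt1 ran from -0.06523 to 0.07817 against shChREBP/L-G6pc+/+, and the difference from -0.03344 to 0.112 for Gsta3 and from -0.1433 to 0.2056 for Gstt3. The cause was not tested.

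In the comparison with shChREBP/L-G6pc+/+ livers 4 members in place of 6 were called by limma, both with voom weights and on the authors' normalized values, without Gstm4 (limma-voom 0.57, adjusted p = 0.146) and Gsta4 (limma-voom 0.55, adjusted p = 0.0791), and the fit of only 2 groups also lost Gstm4 (edgeR, 0.75, adjusted p = 0.111). Of all genes, limma-voom called 11% in that comparison, limma on the deposited values 10.6% and the fit of only 2 groups 9.44%. With shChREBP in L-G6pc-/- livers limma on the deposited values called 3 in place of 4, without Gsta4 (0.63, adjusted p = 0.0512), beside 7.5% of all genes. The fits without s29, s30, s32 and s33 of class sums and of genes outside the family were added after seeing the data. With library size only, the median of all genes with shChREBP in L-G6pc-/- livers was at 0.112 on the log2 scale. Gstm2 (0.60, edgeR adjusted p = 0.024) and Gstm4 (0.82, edgeR adjusted p = 0.031) then passed there too, beside 11% of all genes called. Over all genes, the difference of shChREBP effects was called for 8 genes in the main analysis, 33 with library size only, 73 of 7811 with DESeq2, 4 with limma-voom and on the deposited values, 37 without s29, s30, s32 and s33 and 19 without s9 and s13. Without s29, s30, s32 and s33, 106 in place of 770 genes were called with shChREBP in L-G6pc-/- livers, and 321 in place of 1347 against shSCR/L-G6pc+/+.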
